A study of Mus musculus with 20 samples.

Results

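The genes described here are 42 genes of the G2 phase and mitosis, taken as a list of symbols and matched to the Ensembl identifiers of the deposited count table. All 42 were found among the 49671 genes of that table. RNA had been sequenced from 20 libraries of cultured mouse T cells, with 5 libraries in each of 4 groups. CD8 week 4 libraries held CD8 T cells after 25 days of expansion, and CD8 week 1 libraries held CD8 T cells after 4 days. CD4 week 3 libraries held CD4 T cells after 18 days of expansion, and CD4 week 1 libraries held CD4 T cells after 4 days. In every group, cells of spleen and inguinal lymph nodes had first been activated on plates coated with anti-CD28 and anti-CD3 antibodies. The medium of that step held the growth factor IL-2 at 1 ng/mL. They were then kept in medium with IL-15 at 50 ng/mL and IL-7 at 10 ng/mL, cytokines on which memory T cells depend. All groups were sorted by a surface phenotype that includes CD44 to above 97%, so the cells outside that gate were not measured. The labels name polyclonal cells of albino B6 mice, activated for 72 h, and receptor transgenic cells of the Marilyn-BLITC and MataHari-BLITC lines, activated for 24 h, and do not tie either kind to a library. They also give no animal or culture for a library, so the p-values measure the spread between these samples only, and that spread may be technical. Replicate numbers were assigned here in the order of deposit, so a number shared between groups does not mark a pair.

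A cell that has copied its DNA passes through G2, in which cyclin B and the kinase CDK1 build up, and then enters mitosis, in which the chromosomes condense, attach to the spindle and are parted. Most genes of this programme are silent in resting cells and are switched on together late in the cycle. The DREAM complex of E2F4, a pocket protein and the MuvB core holds them down in resting cells, and B-MYB and FOXM1, which also bind MuvB, raise them in G2. MuvB contacts DNA at an element called the cell cycle genes homology region (CHR), and the factor NF-Y binds CCAAT boxes nearby. T cells run this programme during the rapid divisions that follow activation, whereas memory T cells held by IL-7 and IL-15 divide slowly.

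The libraries held 13.3 to 28.3 M counts. Levels are given as counts per 1 M (CPM) on library sizes scaled by TMM, and levels of different genes are compared only per kilobase of exon (RPKM). The labelled lineage was seen in the markers: Cd8a and Cd8b1 summed to 988 to 2680 CPM in CD8 libraries and to at most 30.7 CPM in CD4 libraries, and Cd4 was at 510 to 899 CPM in CD4 libraries and below 1 CPM in CD8 libraries. The highest sums of other lineages in any library were 13.1 CPM for 5 B cell markers, 23.5 CPM for 6 myeloid markers with Lyz2 at 0, and 0.654 CPM for 4 dendritic cell markers with Siglech at 0. Libraries of CD4 week 3 replicate 2 and CD8 week 1 replicate 3 stood apart from their groups in the genes described here. For each comparison, the count of these genes that changed is given with all libraries and with such a library left out. Many values of single genes and of other gene lists are given with all libraries only. Of the 5 erythroid markers, CD4 week 3 replicate 2 held 18.8 CPM, nearly all Hba-a1, against 0.133 to 1.96 CPM in the other CD4 week 3 libraries. In CD8 week 1 replicate 3 the 5 markers listed for NK cells summed to 360 CPM, against 184 to 191 CPM in the other CD8 week 1 libraries. Eomes alone reached 346 CPM, so that sum is nearly the level of 1 gene and does not show NK cells. The same sum was 197 to 332 CPM in CD8 week 4 libraries. The part of these differences in the results below was not tested.

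Promoters are shown first, because many of these genes hold the promoter elements named above. Any link between these elements and the levels below was not tested. RefSeq promoters (GRCm38.p6, 250 bases before to 50 bases after each start) were matched for 36 of the 42 genes, giving 38 promoters. Those of Aurkb, Ccna2, Cdc25c, Kif20a, Smc4 and Tpx2 were not matched. The 150 bases before the start of 6 members follow, 5′ to 3′ on the strand of the gene, with the CHR letters TTTGAA or TTCAAA and the NF-Y letters CCAAT or ATTGG in capitals. Cdk1, Cdc20, Ube2c, Top2a and Mki67 are shown as genes that hold both, and Cks2 as one that holds CCAAT boxes and no CHR letters in its promoter.
Cdk1 (chr10:69352913-69353062, minus strand): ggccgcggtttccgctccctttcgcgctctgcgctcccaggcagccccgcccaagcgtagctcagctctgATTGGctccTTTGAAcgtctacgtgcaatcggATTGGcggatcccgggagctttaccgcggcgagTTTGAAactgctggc
Cdc20 (chr4:118437344-118437493, minus strand): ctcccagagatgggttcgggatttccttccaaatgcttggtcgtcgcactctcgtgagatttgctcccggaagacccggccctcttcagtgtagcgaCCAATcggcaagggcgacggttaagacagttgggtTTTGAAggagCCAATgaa
Ube2c (chr2:164769779-164769928, plus strand): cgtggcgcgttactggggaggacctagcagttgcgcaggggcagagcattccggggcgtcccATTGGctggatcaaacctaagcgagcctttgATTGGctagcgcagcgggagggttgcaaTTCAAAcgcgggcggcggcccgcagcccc
Top2a (chr11:99024190-99024339, minus strand): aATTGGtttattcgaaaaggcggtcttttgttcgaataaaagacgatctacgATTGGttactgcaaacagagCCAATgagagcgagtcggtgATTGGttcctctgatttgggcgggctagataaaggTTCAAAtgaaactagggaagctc
Mki67 (chr7:135716380-135716529, minus strand): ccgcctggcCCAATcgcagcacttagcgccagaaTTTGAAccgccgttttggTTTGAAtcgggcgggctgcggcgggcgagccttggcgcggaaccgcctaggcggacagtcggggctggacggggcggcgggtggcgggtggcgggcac
Cks2 (chr13:51645082-51645231, plus strand): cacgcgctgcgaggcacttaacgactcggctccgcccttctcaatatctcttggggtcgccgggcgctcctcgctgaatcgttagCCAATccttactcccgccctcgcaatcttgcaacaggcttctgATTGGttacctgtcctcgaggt
The letters TTTGAA, on either strand, occurred in 28 of the 38 members' promoters (73.7%), against 17.9% of 32851 promoters of all genes. CCAAT, on either strand, occurred in 30 of the 38 (78.9%), against 37.4% of all. Both occurred together in 24 of the 38 (63.2%), against 6.95% of all. Within 50 bases of the start on either side, the shares were 65.8% against 4.94% for TTTGAA and 57.9% against 13.6% for CCAAT. The variant TTTAAA, which is its own complement, occurred in 28.9% of the members' promoters and 13.2% of all. None of these motifs was found in the windows of Nuf2, Nusap1 and Tacc3. These are matches of letters in a window and not measured binding.

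**Figure D1:**
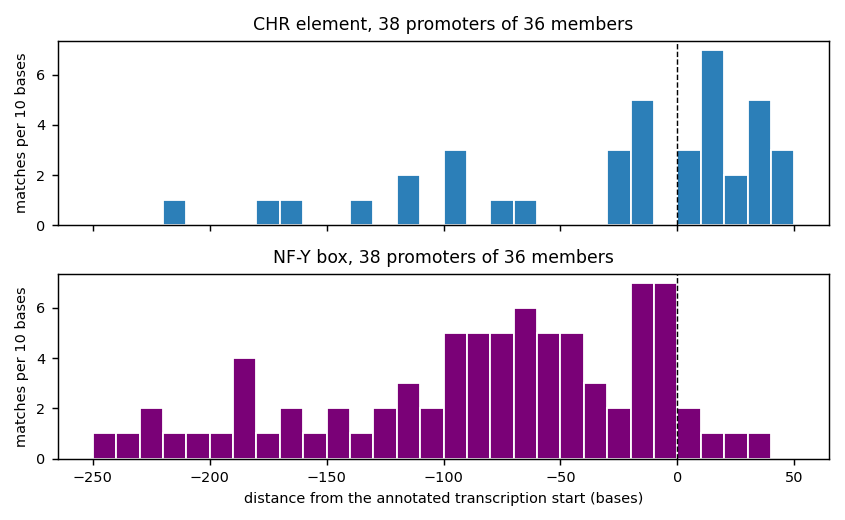
Positions of the CHR letters (upper panel) and of the NF-Y letters (lower panel) in 38 RefSeq promoters of 36 members. The horizontal axis is the distance in bases from the annotated start (dashed line), and the bars count match centres per 10 bases. Most CHR matches (28 of 39) lie within 50 bases of the start, and most NF-Y matches lie in the bases before it.

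For every member but Smc4, the highest level of the 20 libraries stood in a CD8 week 1 library and the lowest in a CD4 week 3 library. The summed level of these 41 genes was 2370, 2476, 2055, 2049 and 1912 CPM in CD8 week 4 libraries, against 8909, 8568, 4086, 10070 and 10290 CPM in CD8 week 1 libraries. In CD4 week 3 libraries the sum was 1282, 4717, 496, 337 and 479 CPM, against 3299, 6025, 5404, 3413 and 2743 CPM in CD4 week 1 libraries. CD8 week 4 libraries lay close together, below every CD8 week 1 library. Replicate 3 was the lowest CD8 week 1 library, and replicate 2 was the highest CD4 week 3 library, within the range of CD4 week 1 and above CD8 week 1 replicate 3. In bulk RNA, fewer dividing cells and less of these RNAs in each cell cannot be told apart.

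**Figure D2:**
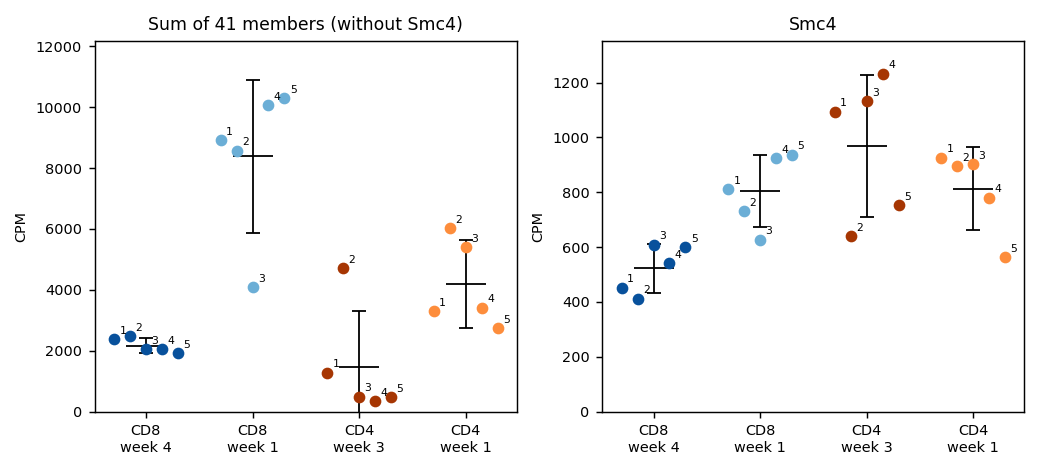
Summed level of 41 members (left, CPM) and level of Smc4 (right, CPM) in each of 20 libraries, with the replicate number beside each point. Horizontal bars are group means and error bars are SD (n = 5 libraries), cut at 0 for CD4 week 3 on the left. On the left CD4 week 3 replicate 2 (4717 CPM) lies far above the other CD4 week 3 libraries, and on the right it is the lowest of its group.

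The members differed in how far libraries of one group spread. The ratio of the highest to the lowest library had a median over members of 1.37 in CD8 week 4, with 1.16 for Ckap2 as the smallest and 1.71 for Cdc20 as the largest. Among CD8 week 1 libraries that median was 2.56. CD4 libraries had 19.6 at week 3 and 2.43 at week 1. CD8 week 1 replicate 3 was the lowest of its group for all 42 members. CD4 week 3 replicate 2 was the highest of its group for every member but Smc4, and replicate 4 the lowest for 38. In CD4 week 1, replicate 2 was the highest for 32 members and replicate 5 the lowest for 39, the exceptions being Cks1b, Ndc80 and Top2a. Per kilobase of exon, Smc4 (149 RPKM over all 20 libraries), Hmgb2 (92.5), Top2a (89.1), Ccnb2 (52.6) and Mki67 (47.0) stood highest, and Anln (4.23), Ttk (4.68) and Cdc25c (5.50) lowest.

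**Figure D3:**
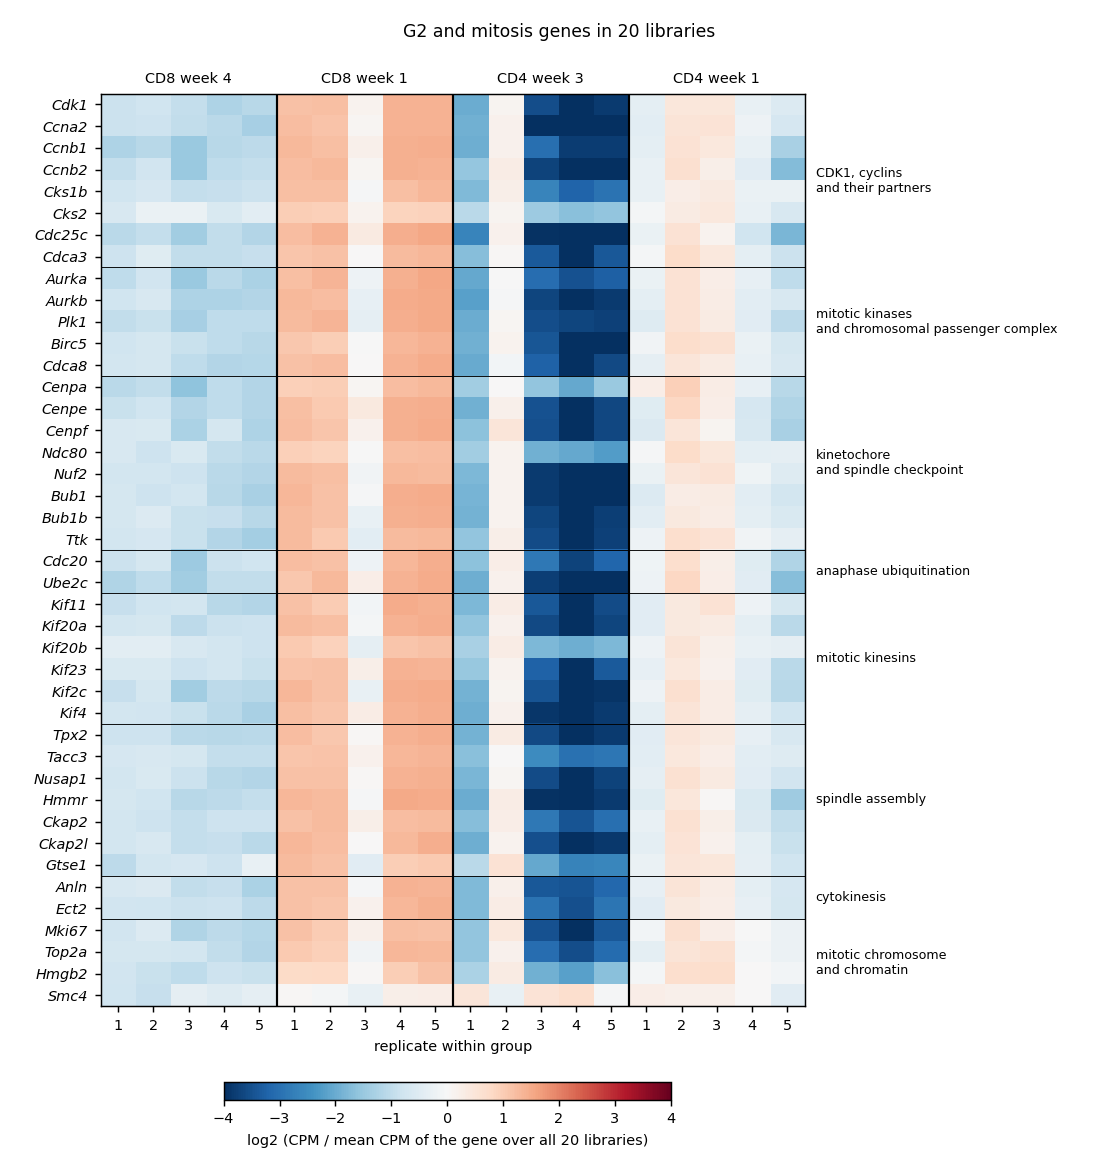
Level of each of the 42 members in each of the 20 libraries, as log2 of the CPM over the mean CPM of that gene across all libraries (red above, blue below, values under -4 drawn at -4). Genes run down the page by role, and libraries are grouped with replicate numbers below. CD8 week 1 columns are red but for replicate 3, CD4 week 3 columns are dark blue but for replicate 2, and the Smc4 line does not follow the rest.

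The first comparison asked how these genes stood in CD8 cells at week 4 against week 1. All 42 fell at week 4 and none rose (quasi-likelihood test of edgeR, p adjusted by Benjamini-Hochberg over 13290 genes, threshold 0.05), where 16.4% of all tested genes were lower and 17.1% higher. The median log2 fold change of the 42 was -1.99, against 0.03 over all tested genes. In 41 of the 42 every week 4 library lay below every week 1 library, as did 9.78% of all genes. The exception was Gtse1, a protein of microtubule plus ends, whose highest week 4 library (27.99 CPM, replicate 5) exceeded the lowest week 1 library (25.4 CPM, replicate 3). The sizes ran from -2.38 for Ccnb1 to -0.62 for Smc4, and after Smc4 the smallest were -1.23 for Cks2 and -1.48 for Kif20b. The summed level of 5 B cell markers was also lower at week 4, at 1.04 to 8.79 CPM in CD8 week 4 libraries, against 9.46 to 13.1 CPM in CD8 week 1 libraries, without overlap. Cd79b alone reached 12.8 CPM in 1 library, so the sum there is nearly that of 1 gene. The part of these markers in the changes was not tested.

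The 8 genes of CDK1, its cyclins and partners fell by a median of 2.11 on the log2 scale. Ccna2, which encodes cyclin A2 of S phase and G2, had 91.8, 92.5, 83.7, 78.3 and 65.9 CPM in CD8 week 4 libraries, against 391, 366, 173, 430 and 431 CPM in CD8 week 1 libraries. Its log2 fold change was -2.12, SE 0.677, adjusted p 0.0224. Ccnb1, which encodes cyclin B1, the partner of CDK1 at mitotic entry, had 14.7, 15.8, 12.3, 15.8 and 16.5 CPM in CD8 week 4 libraries, against 85.3, 79.1, 39.6, 91.5 and 95.1 CPM in CD8 week 1 libraries. All week 4 values lay in a narrow band well below the lowest week 1 library, and the change was the deepest of the 42 (log2 fold change -2.38, SE 0.596, adjusted p 0.00588). Cdc25c, a phosphatase that activates CDK1, had 5.04, 5.46, 4.09, 5.43 and 4.70 CPM in CD8 week 4 libraries, against 25.1, 27.9, 13.7, 29.2 and 31.5 CPM in CD8 week 1 libraries (log2 fold change -2.36, SE 0.674, adjusted p 0.0124). Cks2, a small CDK-binding subunit, changed least of this group, with 9.14, 11.7, 11.8, 9.33 and 10.6 CPM in CD8 week 4 libraries, against 27.8, 27.4, 15.7, 25.9 and 26.6 CPM in CD8 week 1 libraries (log2 fold change -1.23, SE 0.289, adjusted p 0.00394). The highest week 4 library of Cks2 came close to the lowest week 1 library, replicate 3. The kinase gene Cdk1 (-2.10), the cyclin gene Ccnb2 (-2.18), the second CDK-binding subunit gene Cks1b (-1.89) and Cdca3 (-1.87), an adaptor in the degradation of the CDK1 inhibitor Wee1 described in Xenopus, lay between.

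Of the mitotic kinases and the chromosomal passenger complex, Aurkb, the kinase of that complex, had 43.9, 48.9, 32.6, 33.1 and 34.2 CPM in CD8 week 4 libraries, against 189, 183, 61.7, 213 and 219 CPM in CD8 week 1 libraries (log2 fold change -2.17, SE 0.628, adjusted p 0.0136). Aurka, a kinase of the spindle poles, had 15.6, 18.4, 11.3, 14.8 and 12.9 CPM in CD8 week 4 libraries, against 71.8, 79.9, 27.03, 83.4 and 92.5 CPM in CD8 week 1 libraries (log2 fold change -2.28, SE 0.543, adjusted p 0.00434). Week 1 replicate 3 stood far below the other week 1 libraries for either kinase, and still lay above every week 4 library. Cdca8, which encodes the passenger subunit borealin, had 39.1, 39.99, 31.7, 28.9 and 29.2 CPM in CD8 week 4 libraries, against 147, 153, 65.7, 171 and 179.5 CPM in CD8 week 1 libraries (log2 fold change -2.09, SE 0.552, adjusted p 0.00806). The polo-like kinase gene Plk1 (-2.22) and Birc5 (-1.92), which encodes the passenger subunit survivin, fell too.

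The 8 kinetochore and spindle checkpoint genes fell by a median of 1.98 on the log2 scale. Cenpf, a kinetochore-associated protein, had 79.4, 82.7, 51.98, 77.1 and 53.4 CPM in CD8 week 4 libraries, against 291, 272, 139.6, 332 and 351 CPM in CD8 week 1 libraries. Its log2 fold change (-2.01, SE 0.673, adjusted p 0.0283) had the highest adjusted p of the 42. Cenpa, the histone H3 variant that marks centromeres, had 48.3, 51.5, 33.3, 50.3 and 45.5 CPM in CD8 week 4 libraries, against 198, 201, 107, 242 and 248 CPM in CD8 week 1 libraries, and the lowest adjusted p of the 42 (log2 fold change -2.12, SE 0.378, adjusted p 0.00064). Ndc80, of the complex that holds microtubules at the kinetochore, had 27.9, 24.1, 28.1, 21.96 and 20.3 CPM in CD8 week 4 libraries, against 83.3, 80.4, 42.97, 98.4 and 101 CPM in CD8 week 1 libraries (log2 fold change -1.73, SE 0.382, adjusted p 0.00266). Both genes separated the groups at every library. Nuf2 (-1.95), the partner of Ndc80, the kinetochore motor gene Cenpe (-2.15), and the spindle checkpoint genes Bub1 (-2.10), Bub1b (-1.95) and Ttk (-1.95) fell alongside.

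The genes of ubiquitination at anaphase behaved alike. Ube2c, the ubiquitin-conjugating enzyme of the anaphase promoting complex, had 36.9, 41.7, 31.9, 42.8 and 42.05 CPM in CD8 week 4 libraries, against 178, 208, 101, 221 and 233 CPM in CD8 week 1 libraries (log2 fold change -2.27, SE 0.707, adjusted p 0.0197). Cdc20, which activates that complex, fell by 2.00 on the log2 scale.

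The 6 mitotic kinesin genes fell by a median of 2.00 on the log2 scale. Kif20a, a motor of the central spindle, had 45.7, 46.8, 36.9, 42.7 and 43.2 CPM in CD8 week 4 libraries, against 183, 175, 72.5, 201 and 212 CPM in CD8 week 1 libraries (log2 fold change -1.97, SE 0.615, adjusted p 0.0199). Kif20b, its relative that acts late in cytokinesis, had 50.01, 49.6, 42.8, 39.9 and 37.4 CPM in CD8 week 4 libraries, against 138, 126, 52.5, 145 and 150 CPM in CD8 week 1 libraries, and the smallest change of the kinesins (log2 fold change -1.48, SE 0.374, adjusted p 0.00615). Its highest week 4 library lay just under week 1 replicate 3. The spindle motor gene Kif11 (-2.03), the central spindle motor gene Kif23 (-1.84), the microtubule depolymerase gene Kif2c (-2.17) and the chromokinesin gene Kif4 (-2.08) fell by similar amounts.

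Of the 7 spindle assembly genes, with a median of -1.99, Tpx2, which activates Aurora A on spindle microtubules, had 68.8, 69.3, 58.6, 57.4 and 58.1 CPM in CD8 week 4 libraries, against 292, 261, 127, 326 and 341 CPM in CD8 week 1 libraries (log2 fold change -2.11, SE 0.646, adjusted p 0.0181). Tacc3, which joins and stabilises spindle microtubule bundles, had 52.6, 53.3, 50.9, 43.1 and 43.2 CPM in CD8 week 4 libraries, against 181, 182, 94.8, 209 and 214 CPM in CD8 week 1 libraries (log2 fold change -1.86, SE 0.447, adjusted p 0.00451). No library of week 4 reached week 1 for either gene. The microtubule-associated genes Nusap1 (-1.99), Hmmr (-2.13) and Ckap2 (-1.93) changed by close to the median of the 42 and Gtse1 by less (-1.61). Ckap2l fell by 2.00 on the log2 scale. Of the cytokinesis genes, Ect2, an exchange factor that acts at the cleavage furrow, had 26.1, 25.2, 24.6, 24.9 and 21.4 CPM in CD8 week 4 libraries, against 98.8, 96.1, 49.6, 112 and 118 CPM in CD8 week 1 libraries (log2 fold change -1.96, SE 0.529, adjusted p 0.00917), and Anln, which encodes the scaffold anillin, fell by 1.95 on the log2 scale.

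The mitotic chromosome and chromatin genes held the most abundant RNAs. Top2a, the topoisomerase that disentangles sister chromatids, had 493, 497, 485, 402 and 353 CPM in CD8 week 4 libraries, against 1660, 1570, 724, 2009 and 1991 CPM in CD8 week 1 libraries (log2 fold change -1.84, SE 0.538, adjusted p 0.0144). Hmgb2, a DNA-bending chromatin protein, had 165, 150.3, 139, 155 and 149 CPM in CD8 week 4 libraries, against 475, 485, 286, 553 and 619 CPM in CD8 week 1 libraries (log2 fold change -1.67, SE 0.369, adjusted p 0.00266). Both were separated at every library. Smc4, a core subunit of the condensin complexes that compact chromosomes, had 452, 411, 609, 542 and 600.5 CPM in CD8 week 4 libraries, against 811, 730.5, 627, 925 and 936 CPM in CD8 week 1 libraries, the smallest change of the 42 (log2 fold change -0.62, SE 0.181, adjusted p 0.0137). The nearest values of the groups, 609 CPM in week 4 replicate 3 and 627 CPM in week 1 replicate 3, almost met. Mki67, the source of the Ki-67 antigen that coats mitotic chromosomes, fell by 1.91.

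By their title numbers, the CD8 libraries form a first range (replicates 1 to 3 of both times) and a second (replicates 4 and 5). In fits of 1 range alone, 30 of the 42 fell in the first range (background 2.31%) and 42 in the second (25.1%), with medians of -1.73 and -2.43. With the spread of all 20 libraries instead, 1 fell in the first range (Cenpa; background 5.46%) and 5 in the second (Cenpa, Ndc80, Kif20b, Tacc3 and Hmgb2; background 7.52%). Taking the range as a term in the CD8 libraries left 42 lower (16.6%). Without CD8 week 4 replicates 1 and 2 the median was -2.13 and 23 of the 42 passed (14.8%). Without CD8 week 1 replicate 3 the median was -2.17 and all 42 passed (18.7%). DESeq2 called 40 (18.7%) and gave no adjusted p for Mki67 and Cks1b.

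For CD4 cells, week 3 was set against week 1 in the same way. At week 3, 9 of the 42 fell and none rose, where 8.80% of all tested genes were lower and 7.67% higher. The median log2 fold change was -1.54, against 0.01 over all tested genes, and 37 of the 42 had an unadjusted p under 0.05, as did 32.7% of all tested genes in either direction. No member separated the groups at every library (3.88% of all genes were lower without overlap). For all but Ccnb2 and Smc4, replicate 2 was the only week 3 library that reached into week 1. The 9 were Hmgb2, Ndc80, Cenpa, Cks2, Cdca8, Tacc3, Top2a, Cdca3 and Aurka. Leaving out replicate 2 of week 3 gave 41 of 42 lower (background 14.6%) with a median of -2.92, and 40 of the 42 then separated the groups at every library (background 13.2%), the exceptions being Ccnb2 and Smc4. Replicate 2 was singled out for its high levels of these same genes, so deeper falls and less overlap without it follow from that choice. Adjusted p values without replicate 2, here and below, do not allow for it. Leaving out any other CD4 library gave 0 to 8 lower, a fit of the CD4 libraries alone gave 0 (background 4.45%), with 13 at an unadjusted p under 0.05 against 32.1% of all genes in that fit, and DESeq2 gave 21 (background 11.3%). Without both libraries that stood apart, 41 were lower (background 16.2%).

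**Figure D4:**
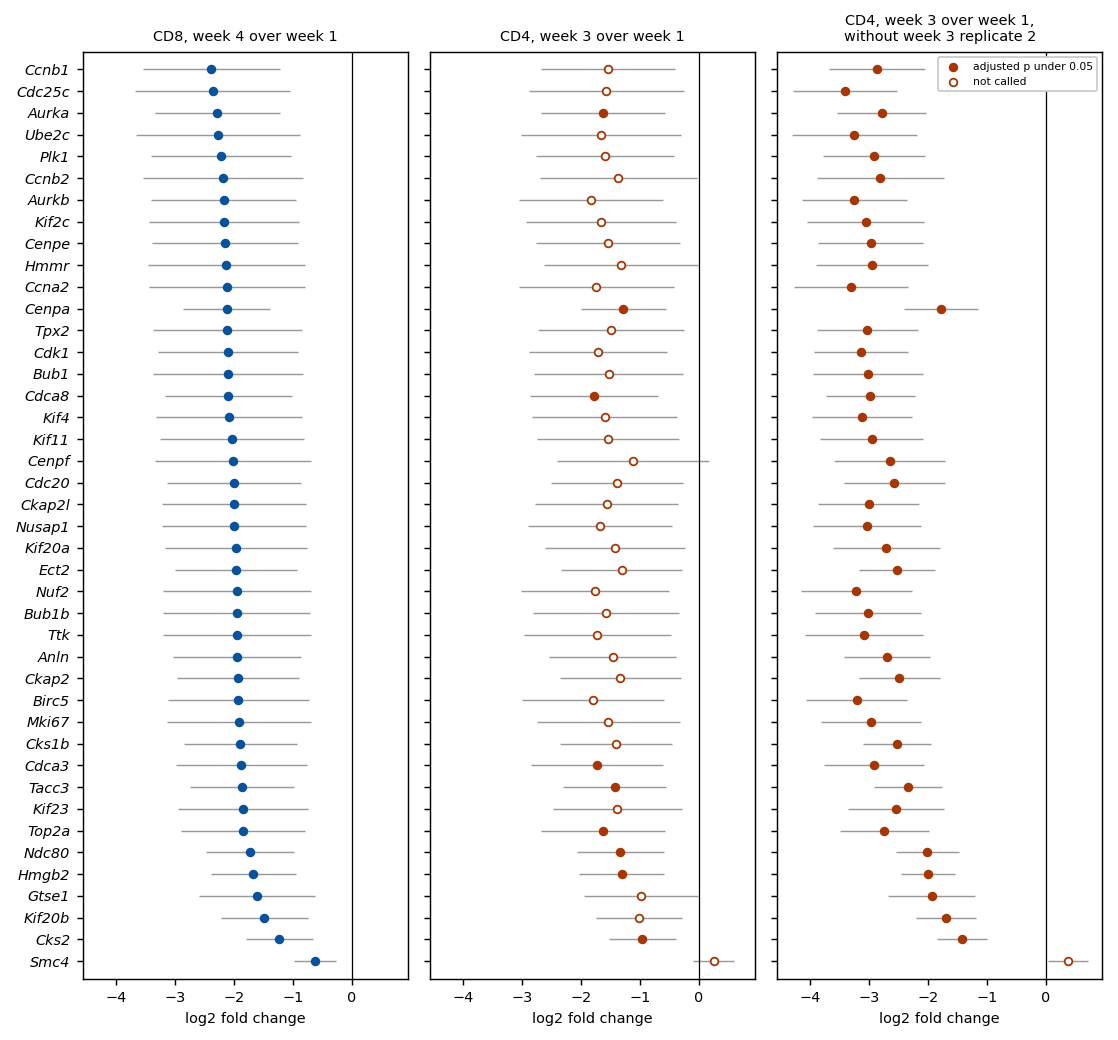
Log2 fold change of each of the 42 members in CD8 cells (left), in CD4 cells (middle) and in CD4 cells without week 3 replicate 2 (right), with bars of 1.96 standard errors. Filled points passed the adjusted p threshold of 0.05 and open points did not. All 42 points are filled on the left, 9 in the middle and 41 on the right, where Smc4 has the one unfilled point, above 0.

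Among the 9 genes, Hmgb2 had 117, 347, 72.5, 61.5 and 87.5 CPM in CD4 week 3 libraries, against 261, 445, 449, 282 and 257 CPM in CD4 week 1 libraries (log2 fold change -1.31, SE 0.366, adjusted p 0.0226). Ndc80 had 16.4, 47.6, 11.3, 10.4 and 9.17 CPM in CD4 week 3 libraries, against 41.7, 71.5, 59.4, 32.95 and 33.7 CPM in CD4 week 1 libraries (log2 fold change -1.33, SE 0.379, adjusted p 0.0243). For Cenpa the values were 39.1, 103, 34.2, 24.5 and 36.1 CPM in CD4 week 3 libraries, against 122, 199, 125, 81.1 and 47.5 CPM in CD4 week 1 libraries (log2 fold change -1.28, SE 0.369, adjusted p 0.0256). In each of the 3 genes, replicate 2 was the only week 3 library inside the week 1 range. Cks2 stood at 6.75, 15.1, 5.14, 4.46 and 4.73 CPM in CD4 week 3 libraries, against 13.3, 17.7, 18.8, 11.5 and 9.04 CPM in CD4 week 1 libraries (log2 fold change -0.96, SE 0.29, adjusted p 0.0319). Cdca8 stood at 15.99, 60.2, 6.94, 3.78 and 5.33 CPM in CD4 week 3 libraries, against 50.2, 91.2, 81.3, 53.03 and 41.3 CPM in CD4 week 1 libraries (log2 fold change -1.78, SE 0.551, adjusted p 0.0348). Replicate 1 of week 3 was the next highest library for both and lay below all of week 1. Tacc3 stood at 26.2, 84.3, 14.5, 10.5 and 11.3 CPM in CD4 week 3 libraries, against 62.7, 110.4, 101, 61.98 and 58.6 CPM in CD4 week 1 libraries (log2 fold change -1.43, SE 0.443, adjusted p 0.0353). Top2a held 271, 902, 97.5, 68.9 and 94.6 CPM in CD4 week 3 libraries, against 609, 1157, 1232, 754 and 688 CPM in CD4 week 1 libraries (log2 fold change -1.63, SE 0.535, adjusted p 0.044). Aurka held 7.59, 31.4, 3.81, 2.83 and 3.30 CPM in CD4 week 3 libraries, against 26.2, 46.9, 37.4, 25.1 and 15.7 CPM in CD4 week 1 libraries (log2 fold change -1.63, SE 0.537, adjusted p 0.0446), and Cdca3 had the same adjusted p with a log2 fold change of -1.73. For Top2a, replicate 2 of week 3 exceeded 3 week 1 libraries, and the other week 3 libraries lay below all of week 1.

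The other members did not pass with all libraries. Ccna2 held 43.2, 184, 9.94, 5.83 and 9.34 CPM in CD4 week 3 libraries, against 124, 235, 239, 143 and 104 CPM in CD4 week 1 libraries, a log2 fold change of -1.74, SE 0.67, adjusted p 0.0795, and -3.31, SE 0.493, adjusted p 0.000126 without replicate 2 of week 3. Aurkb held 16.9, 74.3, 6.04, 3.05 and 5.45 CPM in CD4 week 3 libraries, against 58.8, 114, 95.5, 57.8 and 49.3 CPM in CD4 week 1 libraries, with -1.83, SE 0.625, adjusted p 0.052, and -3.25, SE 0.454, adjusted p 8.25e-05 without replicate 2. The libraries of both genes form the same order at week 3, with replicate 2 highest, then replicate 1, then the others. Cenpf held 39.7, 176, 10.97, 6.01 and 10.1 CPM in CD4 week 3 libraries, against 83.6, 176, 134, 80.4 and 50.8 CPM in CD4 week 1 libraries, with -1.11, SE 0.658, adjusted p 0.25, and -2.65, SE 0.481, adjusted p 0.000628 without replicate 2. For Cenpf, as for Gtse1, replicate 2 of week 3 exceeded every CD4 week 1 library. Ube2c held 21.7, 95.5, 6.17, 2.83 and 4.10 CPM in CD4 week 3 libraries, against 72.8, 149.9, 102, 61.98 and 25.5 CPM in CD4 week 1 libraries, with -1.66, SE 0.696, adjusted p 0.105, and -3.25, SE 0.541, adjusted p 0.000304 without replicate 2. Kif20a held 25.7, 87.4, 6.30, 4.42 and 5.96 CPM in CD4 week 3 libraries, against 56.3, 100.4, 95.8, 58.4 and 36.2 CPM in CD4 week 1 libraries, with -1.42, SE 0.608, adjusted p 0.112, and -2.71, SE 0.465, adjusted p 0.0004 without replicate 2. In both, replicate 5 was the lowest week 1 library and still lay above every week 3 library but replicate 2.

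Tpx2 held 33.6, 154, 10.2, 5.88 and 8.75 CPM in CD4 week 3 libraries, against 89.2, 173, 158, 98.4 and 78.7 CPM in CD4 week 1 libraries, a log2 fold change of -1.49, SE 0.636, adjusted p 0.11, and -3.03, SE 0.437, adjusted p 0.0001 without replicate 2. Ect2 held 13, 54.1, 5.65, 3.83 and 5.88 CPM in CD4 week 3 libraries, against 32.2, 57.3, 53.3, 35.5 and 26.9 CPM in CD4 week 1 libraries, with -1.31, SE 0.523, adjusted p 0.0888, and -2.53, SE 0.329, adjusted p 5.45e-05 without replicate 2. Ccnb1 held 8.93, 39.1, 4.24, 2.51 and 2.49 CPM in CD4 week 3 libraries, against 26.4, 51.97, 46.2, 27.8 and 13.9 CPM in CD4 week 1 libraries, with -1.54, SE 0.584, adjusted p 0.0768, and -2.87, SE 0.413, adjusted p 9.9e-05 without replicate 2. For this cyclin gene, replicate 5 of week 1 was low as well, at 13.9 CPM. Cdc25c held 1.70, 12.1, 0.685, 0.456 and 0.592 CPM in CD4 week 3 libraries, against 8.96, 16.04, 11.9, 6.09 and 3.00 CPM in CD4 week 1 libraries, with -1.57, SE 0.671, adjusted p 0.112, and -3.41, SE 0.454, adjusted p 6.51e-05 without replicate 2, the deepest change of the 42 in that setting. Kif20b held 27.1, 82.8, 19.2, 17.4 and 19.02 CPM in CD4 week 3 libraries, against 57.8, 95.4, 76.6, 54.3 and 52.3 CPM in CD4 week 1 libraries, with -1.02, SE 0.371, adjusted p 0.065, and -1.70, SE 0.26, adjusted p 0.000152 without replicate 2. Its replicates 3, 4 and 5 of week 3 lay close together, below all of week 1.

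Some members were less reduced relative to Cdk1 in the CD4 week 3 libraries where the summed level was lowest. The ratios below were taken for a few members only, so they do not name every such member. In replicates 3, 4 and 5, Cdk1 was at 5.83, 3.46 and 4.86 CPM, and the ratio of Cenpa to Cdk1 was 5.87, 7.08 and 7.43. That ratio was 2.27 in replicate 1 and 1.39 in replicate 2 of week 3, and 1.00 to 2.31 in CD4 week 1 libraries. In the same replicates 3, 4 and 5, the ratio of Kif20b to Cdk1 was 3.30, 5.01 and 3.91, against 0.809 to 1.10 in CD4 week 1 libraries. Hmgb2 over Cdk1 was 12.4, 17.7 and 18.0, against 4.71 to 5.42 in CD4 week 1 libraries, and Cks2 over Cdk1 was 0.882, 1.29 and 0.974, against 0.188 to 0.252. The ratio of Cdc20 to Cdk1 was 1.57 to 1.65, against 0.639 to 1.18 in CD4 week 1 libraries. That of Ccnb2 to Cdk1 was 0.957 to 1.07, inside the 0.514 to 1.32 of CD4 week 1 libraries. These ratios were chosen after the values were seen and are a description. In CD8 week 4 libraries the ratio of Cenpa to Cdk1 was 0.933 to 1.73, against 1.26 to 1.40 in CD8 week 1 libraries, and that of Kif20b to Cdk1 was 1.19 to 1.37, against 0.690 to 0.895. The ratio of Cks2 to Cdk1 was 0.240 to 0.336 in CD8 week 4, against 0.145 to 0.206 in CD8 week 1 libraries, and that of Hmgb2 to Cdk1 was 3.78 to 5.33, against 3.04 to 3.76. For Cdc20 it was 0.716 to 1.33 in CD8 week 4, against 0.799 to 1.08, and for Ccnb2 0.813 to 1.36, against 1.11 to 1.25, so these overlapped.

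**Figure D5:**
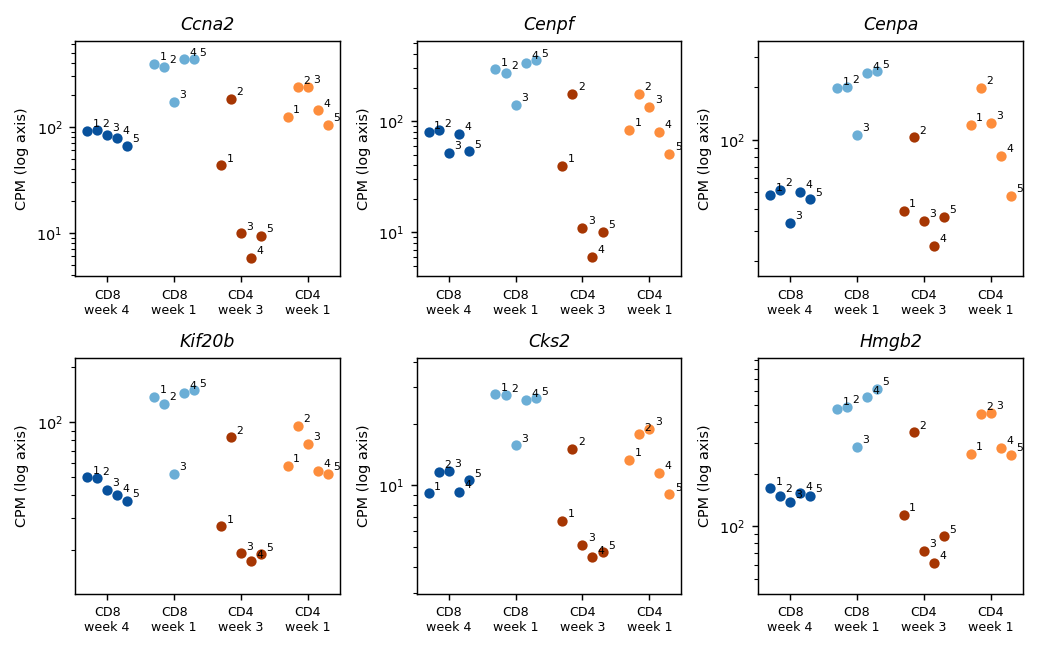
Level (CPM, log axis) of 6 members in each of 20 libraries, with the replicate number beside each point. In CD4 week 3 replicates 3, 4 and 5, Ccna2 and Cenpf lie near 10 CPM or lower, while Cenpa keeps 24.5 to 36.1 CPM, Kif20b 17.4 to 19.2 CPM and Hmgb2 61.5 to 87.5 CPM. Replicate 2 of CD4 week 3 lies with the week 1 libraries in all 6 panels.

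Smc4 (ENSMUSG00000034349, GRCm38 chromosome 3, 69004738 to 69034623) departed from the other 41 in CD4 cells. It had 1094, 639, 1133, 1232 and 753 CPM in CD4 week 3 libraries, against 926, 895, 902, 779.8 and 564 CPM in CD4 week 1 libraries, and did not pass (log2 fold change 0.25, SE 0.181, adjusted p 0.341). Replicate 2, the highest week 3 library for the other 41, was its lowest, and replicate 4, the lowest for 38, was its highest. Without replicate 2 the log2 fold change was 0.37, SE 0.172, adjusted p 0.117. Smc2, the other SMC subunit of condensin and no member of the 42, followed the rest. It had 68.0, 187, 43.5, 36.7 and 36.4 CPM in CD4 week 3 libraries, against 113, 192, 253, 152 and 173 CPM in CD4 week 1 libraries (log2 fold change -1.25, adjusted p 0.0302). In CD8 cells the log2 fold change of Smc2 was -1.60 (adjusted p 0.00411), and that of Smc4 -0.62. A list of 13 genes outside the 42 holds condensin subunits and regulators of cohesin, and no cohesin subunit. Of these, 12 were lower and none higher in CD8 week 4 (16.4% of all tested genes lower). In CD4 week 3, 9 were lower and none higher (8.80% of all lower). The gene not called in CD8 cells was the securin gene Pttg1 (log2 fold change -0.11, adjusted p 0.619 by edgeR).

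The third comparison set the CD8 change against the CD4 change, as an interaction in the same fit. None of the 42 passed, where 0.406% of all tested genes were lower and 0.248% higher, and 1 of the 42 (Smc4) had an unadjusted p under 0.05, as did 11.8% of all tested genes. DESeq2 called Smc4 lower (adjusted p 0.0398; background 1.34%). The median was -0.49, and all 42 were negative, that is, lower in the CD8 than in the CD4 change. Without CD4 week 3 replicate 2 the median turned to 0.80 and 2 of the 42 were negative, again with none past the threshold (backgrounds 0.431% lower and 0.305% higher). Without CD8 week 1 replicate 3 as well, 1 (Smc4) was lower (background 1.54%). Smc4 had the lowest adjusted p in both (log2 difference -0.88, SE 0.256, adjusted p 0.122, and -1.01, SE 0.237, adjusted p 0.0528 without replicate 2). For Cenpa the log2 difference was -0.84 with bounds of 1.96 standard errors at -1.85 and 0.16, so the data do not settle its sign. The comparisons of each cell type share no libraries, and the times differ, at 25 days for CD8 and 18 days for CD4, so cell type and culture time cannot be told apart.

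The fourth comparison set CD8 against CD4 cells at week 1, when both had been expanded for 4 days. All CD4 libraries bear title numbers outside both CD8 ranges. In every comparison of the cell types, lineage and title range thus cannot be told apart. Of the 42, 2 were higher in CD8 and none lower, where 19.1% of all tested genes were higher and 19% lower. Tacc3 averaged 176 ± 47.9 CPM in CD8 and 79.0 ± 24.7 CPM in CD4 week 1 libraries (SD, n = 5 each; log2 fold change 1.16, SE 0.438, adjusted p 0.0438 by edgeR). Cks2 averaged 24.7 ± 5.09 CPM in CD8 and 14.1 ± 4.13 CPM in CD4 week 1 libraries (SD, n = 5 each; log2 fold change 0.81, SE 0.286, adjusted p 0.0317 by edgeR). For both, the lowest CD8 library, replicate 3, lay inside the CD4 range. The median of the 42 was 1.17, against -0.01 over all tested genes, and 41 were positive. Smc4 stood at -0.01. Leaving out CD8 week 1 replicate 3 gave 8 of the 42 higher (background 22%) with a median of 1.34, and leaving out CD4 week 3 replicate 2 too, which is in neither group but in the same fit, gave 41 (background 26.3%) with a median of 1.36. Removing any 1 other library of the compared groups gave 0 to 5 higher, and DESeq2 called 6 (background 21.4%). No member separated the groups at every library, where 12.4% of all genes were higher without overlap.

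The last comparison set CD8 week 4 against CD4 week 3. Smc4 was lower in CD8 week 4 (523 ± 88.5 CPM, against 970 ± 259 CPM in CD4 week 3; SD, n = 5 each; log2 fold change -0.89, SE 0.182, adjusted p 0.00103 by edgeR), and it was the sole member to pass, where 15% of all tested genes were lower and 17.7% higher. Its highest CD8 week 4 library (609 CPM) lay below its lowest CD4 week 3 library (639 CPM), as for 9.30% of all genes. The median of the 42 was 0.63. Without CD4 week 3 replicate 2, 40 of the 42 were higher in CD8 week 4 (background 22.4%) and Smc4 stayed lower (background 18.0%), with a median of 1.99, and 40 members and Smc4 separated the groups at every library (backgrounds 20% and 17.3%). Leaving out CD8 week 1 replicate 3 as well gave 40 higher too (background 24.5%). Without CD4 week 3 replicate 2, Cdc25c was 5.71-fold higher (adjusted p 0.000274 by edgeR) and Cks1b 3.22-fold higher (adjusted p 0.000177). Cenpa was the sole member that did not pass (log2 fold change 0.44, adjusted p 0.263).

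Other genes of mitosis were counted from a list of 109 that holds none of the 42. In CD8 week 4, 94 of the 109 were lower and none higher than in week 1, with a median log2 fold change of -1.60, where 16.4% of all tested genes were lower. In CD4 week 3, 49 of the 109 were lower and none higher, with a median of -1.20 (8.80% of all lower), and 86 were lower without replicate 2 (14.6% of all). All 11 entry kinase and phosphatase genes fell in CD8 cells, among them Bora, an activator of Aurora A (20.1 ± 1.94 CPM in week 4 and 48.8 ± 10.3 CPM in week 1, adjusted p 0.000151), and Cdc25b, a phosphatase that activates CDK1 at the centrosome (81.9 ± 12 CPM in week 4 and 231 ± 57.0 CPM in week 1, adjusted p 0.000291; SD, n = 5 each, edgeR). Of 36 kinetochore and checkpoint genes outside the 42, 34 fell in CD8 cells, with Cenpc1, which links centromeres to the kinetochore (1.95-fold), and the checkpoint gene Bub3 (1.69-fold) at the lowest adjusted p. Of 23 spindle and cytokinesis genes 21 fell, with the kinesin gene Kifc1 (3.28-fold) first. Of the 13 genes of condensin subunits and cohesin regulators, Ncapd3 (1.90-fold) and Ncaph2 (1.78-fold) were first. The 17 genes of the anaphase promoting complex and its partners had the smallest median of these lists, with 10 lower in CD8 cells and a median of -0.25. Their lowest adjusted p values belonged to the subunit genes Cdc27 (1.49-fold lower) and Anapc15 (1.91-fold lower).

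Cdc25b, named after its values were seen, was the sole gene of the 109 to pass in the difference between the cell types (log2 difference -1.54, adjusted p 0.0389 by edgeR). In CD4 cells it had 188, 345, 247, 201 and 343 CPM in week 3 libraries, against 245, 397, 252, 238 and 149 CPM in week 1 libraries (log2 fold change 0.05, adjusted p 0.907). Without CD4 week 3 replicate 2 the difference was -1.45 and missed the threshold (adjusted p 0.0524).

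The regulators of this programme did not all move with it. Foxm1 averaged 47.6 ± 5.56 CPM in CD8 week 4 and 174 ± 55.2 CPM in CD8 week 1 libraries (SD, n = 5 each; log2 fold change -1.87, adjusted p 0.0120 by edgeR). Mybl2, which encodes B-MYB, averaged 12.7 ± 2.34 CPM in CD8 week 4 and 42.9 ± 15.2 CPM in CD8 week 1 libraries (SD, n = 5 each; log2 fold change -1.75, adjusted p 0.0107 by edgeR). Of the MuvB core, Lin9 and Lin54 fell (-0.82 and -0.91, adjusted p 0.000475 and 0.000348 by edgeR), while Lin37 and Lin52 did not pass (0.12 and -0.22, adjusted p 0.416 and 0.184). The pocket protein gene Rbl1 (p107) fell (-1.06, adjusted p 0.00331), as did E2f4 (-0.24, adjusted p 0.00582), and the pocket protein gene Rbl2 (p130) did not pass (0.21, adjusted p 0.358). In CD4 cells Mybl2 (-1.93, adjusted p 0.0148 by edgeR), Lin9 (-0.83, adjusted p 0.00151) and Rbl1 (-0.80, adjusted p 0.0300) fell at week 3. Foxm1 did not pass (-1.54, adjusted p 0.0520 by edgeR) unless replicate 2 was left out (-2.67, adjusted p 7.67e-05). The same held for Lin54 (-0.42, adjusted p 0.0602 by edgeR, and -0.58, adjusted p 0.00365 without replicate 2). Lin37, Lin52, Rbl2 and E2f4 passed in neither setting.

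Genes of the preceding S phase were lower too, with medians nearer 0 than those of the 42. Of 49 S phase and replication genes, 46 were lower and none higher in CD8 week 4 (16.4% of all tested genes lower), with a median of -1.10. In CD4 week 3, 44 were lower and none higher (8.80% of all lower), with a median of -1.23. Orc6, a subunit of the origin recognition complex, was 2.14-fold lower and Rpa2, which coats single-stranded DNA, 1.97-fold lower in CD8 week 4. Per library, the sum of the 41 members without Smc4 over the sum of the 49 S phase genes was 0.505 to 0.774 in CD8 week 4 libraries, against 1.03 to 1.27 in CD8 week 1 libraries. It was 0.574, 1.09, 0.294, 0.214 and 0.303 in CD4 week 3 libraries, against 1.05, 1.29, 0.851, 0.754 and 0.392 in CD4 week 1 libraries. CD4 week 1 replicate 5 thus had the highest S phase sum of its group (6988 CPM) and the lowest sum of the 41 members (2743 CPM).

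For Ccnb1, Cks2 and Hmgb2, near-identical processed pseudogenes exist (3, 3 and 5 copies at 95% identity or more). They were found in a later GENCODE release than that of the counts, and some have no row in the count table. Reads that fit a gene and a copy equally were not counted, so the levels of these 3 genes are uncertain. Exons of 10 members, among them Kif20a (33.2% of exon bases) and Ube2c (22.8%), overlap a gene on the opposite strand, which the stranded counting keeps apart, and 1.4% of the exon bases of Top2a overlap a small gene on the same strand.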

How the data were processed

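Each library was polyadenylated RNA of sorted mouse T cells. The authors deposited 1 table of read counts per gene for 20 libraries, made with featureCounts 1.6.3 for reversely stranded reads on GENCODE M12 genes without multi-mapping reads, per the file headers. STAR and mm10 are named in the submitters' processing notes. Groups came from the labels. The members and gene lists were chosen with earlier results of these data known. Genes passing filterByExpr (13290) were fitted once over all 20 libraries with TMM scaling by edgeR 4.0.16 (quasi-likelihood test, limma 3.58.1, R 4.3.3), and p-values were Benjamini-Hochberg adjusted over all of them. The scripts were tested on simulated data. Alternatives were DESeq2 1.42.0, other filters, left-out libraries, single cell types and title ranges. Library pairs within a group (40) differed beyond sampling noise, with chi-square per degree of freedom of 5.9 or more. Values are given for the member of each role with the highest mean CPM, which takes no account of exon length. They are also given for the 3 deepest and 3 smallest CD8 changes, and for members called in the other comparisons. Of other genes, the 2 with the lowest adjusted p per list are named, except 1 that is not reported here, as is 1 marker of the sort. Copies were searched with minimap2 2.31 (95% identity over 200 bases) in transcripts of a later GENCODE release.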

Additional observations from a re-analysis of the deposited data

Results flagged for a closer look

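In groups of 5 libraries, a single library was set apart where its gap to the nearest other exceeded 0.71 of the group's range (Dixon's 95% value). Chance gives about 1 such library in 20 independent tests. Here 168 tests were made over the 42 members and 4 groups, and they are not independent, because members move together within a library. The gaps were taken on CPM, and log levels were not tested. CD4 week 3 replicate 2 stood apart for 41 of the 42 members and CD8 week 1 replicate 3 for 26.

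For the summed level of the 41 members without Smc4, CD4 week 3 replicate 2 lay above its group at 4717 CPM and CD8 week 1 replicate 3 below its group at 4086 CPM. In CD4 week 3 replicate 2, the cyclin genes Ccna2 and Ccnb1 stood high at 184.1 and 39.09 CPM, with Cdc25c at 12.05 CPM and Cks2 at 15.12 CPM. The kinase genes Aurkb and Aurka were at 74.31 and 31.35 CPM there, and Cdca8 at 60.24 CPM. Of the kinetochore genes, Cenpf was at 176.4 CPM, Cenpa at 103.1 CPM and Ndc80 at 47.62 CPM. Ube2c stood at 95.54 CPM, the kinesin genes Kif20a and Kif20b at 87.36 and 82.75 CPM, the spindle genes Tpx2 and Tacc3 at 153.5 and 84.29 CPM, and Ect2 at 54.12 CPM. The chromatin genes Top2a and Hmgb2 stood at 902 and 347.4 CPM. In CD8 week 1 replicate 3, Ccna2 stood low at 172.6 CPM, Ccnb1 at 39.63 CPM and Cks2 at 15.65 CPM. In the same library Aurkb was at 61.67 CPM, Cdca8 at 65.72 CPM, Kif20a at 72.46 CPM, Kif20b at 52.47 CPM and Tacc3 at 94.79 CPM.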

How the results depend on the processing

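In CD8 cells, all 42 members were lower in the main setting. The count was 23 without CD8 week 4 replicates 1 and 2. With the spread of all 20 libraries it was 1 in the first title range and 5 in the second, where fewer libraries enter the comparison. In CD4 cells the 9 lower members became 21 by DESeq2, 0 in the CD4 libraries alone, 0 to 41 on leaving out 1 library, and 41 without both CD4 week 3 replicate 2 and CD8 week 1 replicate 3. For the difference between cell types, DESeq2 gave 1 lower and so did leaving out both libraries. Its median of -0.49 ran from -0.75 to 0.80 on leaving out 1 library, with 0.80 without CD4 week 3 replicate 2, and was 0.62 without both. Between CD8 and CD4 at week 1, the 2 higher members became 6 by DESeq2, 1 with no filter, 0 to 8 on leaving out 1 library, and 41 without both. For CD8 week 4 against CD4 week 3, the count higher ran from 0 to 40 on leaving out 1 library and was 40 without both. The cause was not tested. Over single members and alternatives, 842 of 964 CD8 values and 563 of 712 CD4 values kept their direction and side of the threshold. No paired analysis was possible because the labels give no replicate numbers. Low levels, such as Cdc25c at 0.456 to 1.70 CPM in CD4 week 3 libraries other than replicate 2, carry more counting error.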
